A study of Mus musculus with 4 samples.

Results

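Angiogenic growth factors and the hypoxia factor Hif1a were followed in endometriotic lesions of mice, in which tissue of the uterine lining grows at other sites. The 10 genes were Hif1a, Vegfa, Vegfb, Vegfc, Pgf, Angpt1, Angpt2, Thbs1, Fgf2 and Hgf, of 18193 genes with a single symbol on the array. They were found by gene symbol, and every probe set annotated to exactly 1 of them was kept, 21 of 34945 probe sets. Of these, 7 genes had several probe sets and 3 had 1, and 1 further probe set was left out because it carried a second symbol. RNA came from lesions of mice fed a high-fat diet (2 arrays) or a casein diet (2 arrays), and the casein diet is the control in the labels. Affymetrix 3′ arrays were hybridised with biotin-labelled RNA made from 0.1 µg of total RNA. Strain, age, feeding time and the number of animals or lesions behind each array are not stated in the labels, so all p-values measure only the spread between these samples, which may be technical. The series title places the diets in the context of the redox and inflammatory status of the lesions.

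New vessels are formed when endothelial cells respond to secreted factors. HIF1A is the oxygen-regulated subunit of a transcription factor. It is degraded in oxygen after hydroxylation by EGLN enzymes and recognition by VHL, and is controlled largely at the protein level. When stabilised it pairs with ARNT and binds core hypoxia response elements in target genes, of which Vegfa is the textbook case. Endometriotic lesions depend on blood supply from the surrounding tissue, and VEGFA is one of the factors most studied in them.

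Stretches before the start sites of Vegfa, Vegfb and Hgf are printed because they show whether the core hypoxia response element stood near the start sites of 3 secreted factors whose levels are reported here. The letters searched were ACGTG and GCGTG on both strands, which read CACGT and CACGC on the other strand, and matches are in capitals. CACGTG holds overlapping matches and was counted as 1 site. Each stretch is the 250 bases before the start site, read 5′ to 3′ on the gene's strand from RefSeq on GRCm38.p6, and none overlaps another annotated gene in that table. The stretches lie at chr17:46032378-46032627 on the minus strand for Vegfa, chr19:6987652-6987901 on the minus strand for Vegfb and chr5:16553245-16553494 on the plus strand for Hgf.
Vegfa: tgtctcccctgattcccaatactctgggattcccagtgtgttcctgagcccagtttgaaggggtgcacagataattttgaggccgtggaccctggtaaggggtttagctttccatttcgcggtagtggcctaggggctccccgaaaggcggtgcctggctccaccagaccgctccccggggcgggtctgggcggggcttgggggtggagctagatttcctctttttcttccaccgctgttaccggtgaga
Vegfb: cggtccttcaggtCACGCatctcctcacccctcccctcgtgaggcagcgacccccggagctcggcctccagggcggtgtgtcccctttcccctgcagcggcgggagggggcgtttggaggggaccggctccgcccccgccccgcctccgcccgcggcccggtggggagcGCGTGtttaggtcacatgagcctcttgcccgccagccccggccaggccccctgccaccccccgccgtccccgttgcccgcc
Hgf: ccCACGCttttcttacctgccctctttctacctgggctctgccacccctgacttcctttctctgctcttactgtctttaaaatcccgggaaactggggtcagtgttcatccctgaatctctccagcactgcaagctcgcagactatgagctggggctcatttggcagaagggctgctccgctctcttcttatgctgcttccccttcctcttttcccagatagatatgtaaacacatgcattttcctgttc

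The Vegfb stretch held 2 matches, starting 237 and 81 bases before the start site, and the Hgf stretch held 1, starting 248 bases before it. The Vegfa stretch held 0, and bases further upstream of it were not searched. The table listed 10 start sites for 7 of the 10 genes, and 6 of these 10 windows held a match, among them a second, internal start site of Vegfa with 2. Of all 32851 windows of the same length, 38.6% held one. A match describes the letters only, and nothing about binding was measured.

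None of the 10 genes was called different between the diets. In limma's fit across 12797 genes the share called at an adjusted p under 0.05 was 0.0% (0 genes, smallest adjusted p = 0.823 after Benjamini-Hochberg adjustment). With every probe set as a feature the share was also 0.0%. At an unadjusted p under 0.05 limma gave 636 genes, or 4.97%, and 0 of the 9 angiogenic genes that reached the intensity filter. The filter was a mean intensity of at least 33.9, the 40th percentile over probe sets other than controls. Fgf2 did not reach it.

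Differences are mean log2 intensities on the high-fat diet minus those on the casein diet. Among the 9 tested genes the largest was 0.34, for Hgf, and the median was 0.11, against a median of -0.01 over all genes tested. Of the 9, 7 were above and 2 below the casein diet, and 48.6% of all genes tested were above it. All 9 intervals (95%) included 0, and all 9 lay within a 2-fold change, their outer bounds being 0.537-fold and 1.83-fold, both for Vegfc. Both high-fat arrays lay above both casein arrays for 3 of the 9 genes (Pgf, Angpt1 and Hgf) and below them for 0. Over all genes tested the diets did not overlap for 36.0%, 16.6% with the high-fat diet higher and 19.3% with it lower. The 3 of 9, or 33.3%, was thus close to the share over all genes.

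**Figure D1:**
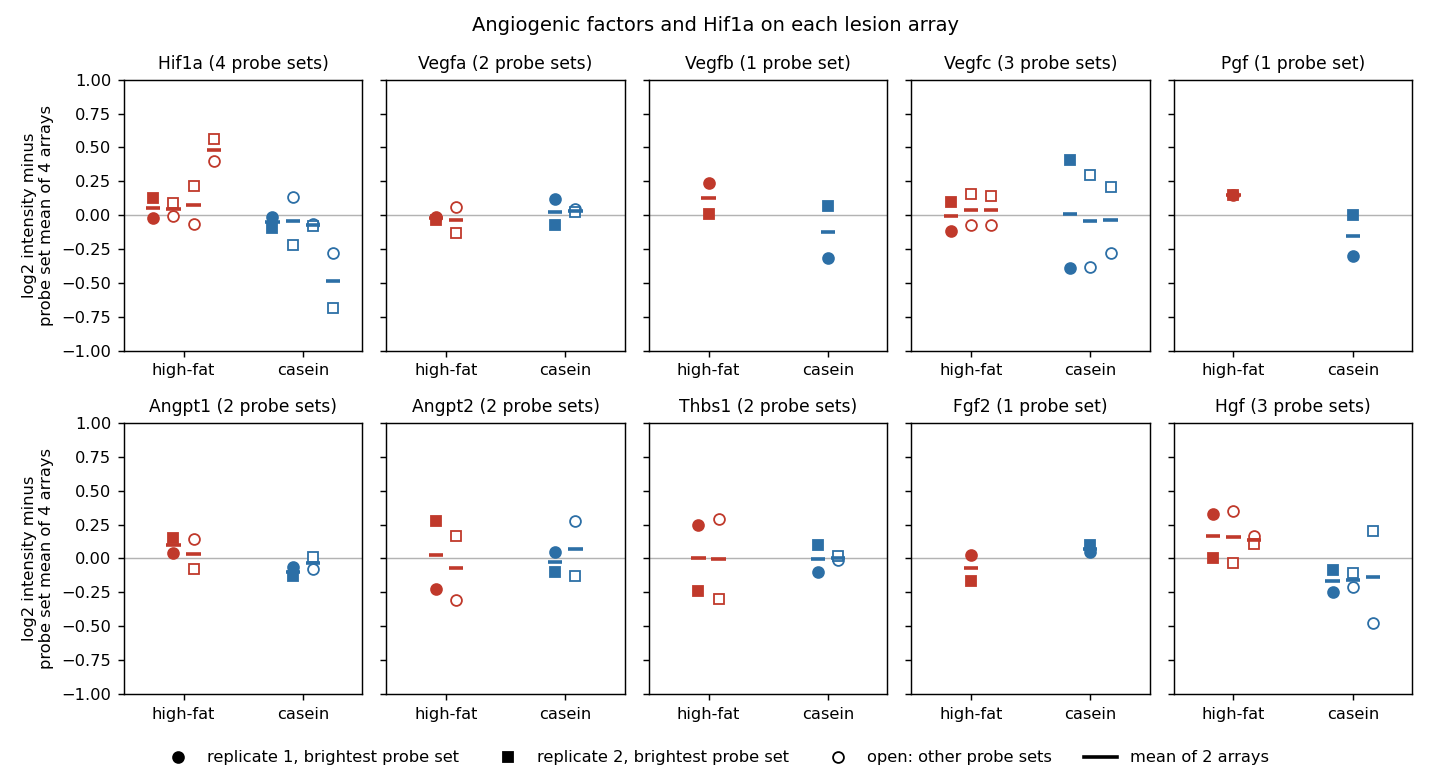
Log2 intensity of each probe set minus its own mean over the 4 arrays (vertical axis), for high-fat diet arrays (red, left) and casein diet arrays (blue, right); circles are replicate 1, squares replicate 2, filled symbols the brightest probe set, open symbols the others, and short lines the means of 2 arrays. Apart from the dimmest Hif1a probe set, no diet difference exceeded 0.34, and the diets overlapped for 15 of 21 probe sets.

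Hif1a transcript levels were close between the diets in the 3 brighter of its 4 probe sets. The brightest had intensities of 3061 and 3390 on the high-fat diet, against 3080 and 2912 on the casein diet. High-fat diet replicate 2 was the highest array, and high-fat diet replicate 1 lay between the casein arrays. The difference was 0.11 (SE 0.11, 95% interval -0.20 to 0.41, adjusted p = 0.872 by limma), and it was 0.03 without high-fat diet replicate 2. Averaged over all 4 probe sets, the dimmest included, it was 0.33. The second probe set had intensities of 742.1 and 793.6 on the high-fat diet, against 814.6 and 638.1 on the casein diet. The third had 327.1 and 396.7 on the high-fat diet, against 327.1 and 323.8 on the casein diet. Their differences were 0.09 and 0.15, each smaller than the wider of the gaps between arrays of 1 diet (0.35 and 0.28).

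The dimmest Hif1a probe set stood apart from the other 3. Its intensities were 37.3 and 41.9 on the high-fat diet, against 23.3 and 17.6 on the casein diet. The diets did not overlap. Both casein values were below the intensity filter, as was the mean over the 4 arrays. The difference was 0.96 (SE 0.18, 95% interval 0.48 to 1.45), with an unadjusted p of 0.00500 and an adjusted p of 0.851 in limma's fit over all 34945 probe sets. It was the only 1 of the 21 probe sets with an unadjusted p under 0.05, and 5.02% of all probe sets had one. It was 0.76 to 1.16 when 1 array was left out and 0.61 with a pseudocount of 16 added before log2, and the part of the transcript that it reads was not examined here.

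**Figure D2:**
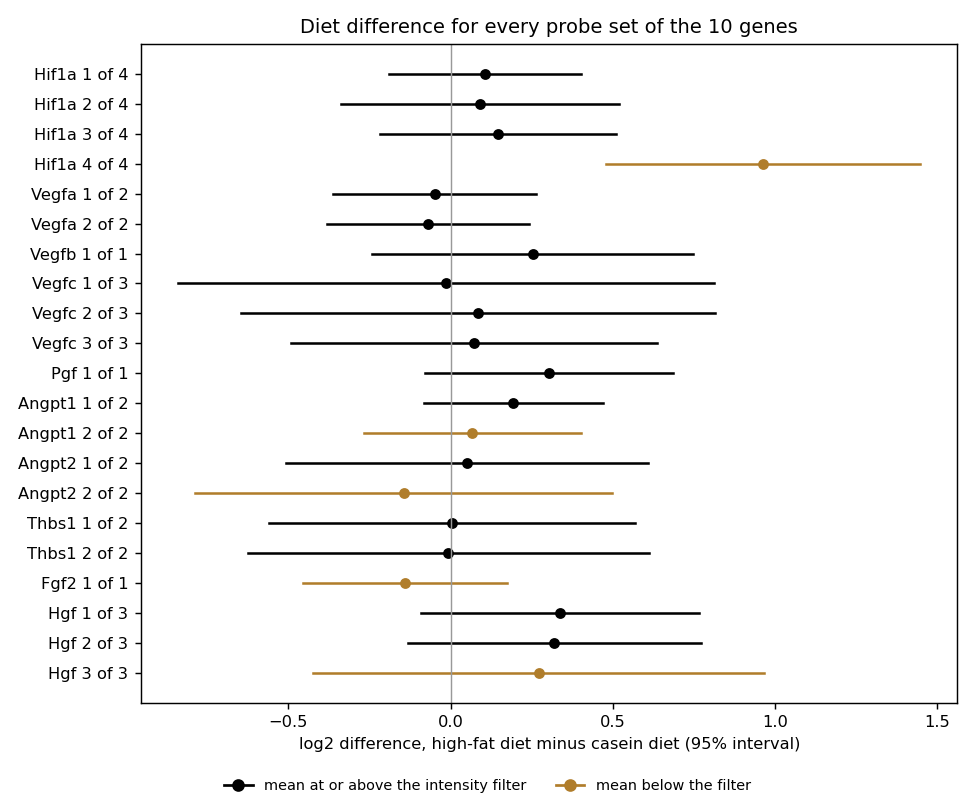
Log2 difference (points) with its 95% interval (lines) for each of the 21 probe sets, numbered from the brightest within a gene, from limma's fit over all probe sets; ochre marks the 5 probe sets with a mean below the intensity filter. Only the dimmest Hif1a probe set, at 0.96, had an interval clear of 0, and its adjusted p was 0.851.

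Vegfa, the main growth factor of endothelial cells, was nearly the same on all arrays. Its intensities were 164.3 and 161.1 on the high-fat diet, against 180.1 and 157.2 on the casein diet. The casein arrays enclosed both high-fat arrays. The difference was -0.05 (SE 0.11, 95% interval -0.37 to 0.27, adjusted p = 0.945 by limma), or 0.05 without casein diet replicate 1. In fold terms the interval ran from 0.773 to 1.21, so these arrays leave room for changes of that size. The second probe set had 86.0 and 75.3 on the high-fat diet, against 85.2 and 83.7 on the casein diet, a difference of -0.07.

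Vegfb, which binds the decoy receptor FLT1 and is best known for a part in fatty acid uptake through endothelium, had 1 probe set. Its intensities were 288.9 and 246.4 on the high-fat diet, against 195.9 and 255.9 on the casein diet. Casein diet replicate 1 was the lowest array, and casein diet replicate 2 lay between the high-fat arrays. The difference was 0.25 (SE 0.19, 95% interval -0.27 to 0.78, adjusted p = 0.863 by limma), and it was 0.06 without casein diet replicate 1. That array also held the highest summed intensity of gastric markers, as given further on, and the part of this in the Vegfb value was not tested.

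Pgf, the placental growth factor, which also binds FLT1, had intensities of 123.5 and 123.5 on the high-fat diet, against 90.1 and 111.3 on the casein diet. Both high-fat arrays were higher, and the gap between the casein arrays, 0.30, was as large as the difference between diets. That difference was 0.30 (SE 0.14, 95% interval -0.10 to 0.70, adjusted p = 0.863 by limma). Dropping casein diet replicate 1 gave 0.15, and dropping casein diet replicate 2 gave 0.45.

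Vegfc, the growth factor of lymphatic vessels, varied most between the casein arrays. The brightest of its 3 probe sets had 94.6 and 109.7 on the high-fat diet, against 78.1 and 135.6 on the casein diet. Both high-fat arrays lay between the casein arrays. All 3 probe sets gave the same order, with casein diet replicate 2 highest and casein diet replicate 1 lowest. The difference was -0.01 (SE 0.31, 95% interval -0.90 to 0.87, adjusted p = 0.997 by limma). Dropping casein diet replicate 1 gave -0.41 and dropping casein diet replicate 2 gave 0.38, so its direction followed the casein array that was kept.

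Angiopoietins act on the endothelial receptor TEK: ANGPT1 steadies vessels, and ANGPT2 mostly opposes it and loosens them before sprouting. Angpt1 had intensities of 68.8 and 74.2 on the high-fat diet, against 63.9 and 61.1 on the casein diet. Both high-fat arrays were higher, by a difference of 0.19 (SE 0.10, 95% interval -0.09 to 0.48, adjusted p = 0.863 by limma), or 0.14 to 0.25 with 1 array left out. Its second probe set was below the filter, and the diets overlapped there, with 24.0 and 20.6 on the high-fat diet against 20.6 and 21.9 on the casein diet.

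Angpt2 differed more within the high-fat diet than between diets. Its intensities were 153.1 and 216.8 on the high-fat diet, against 185.0 and 167.1 on the casein diet. High-fat diet replicate 1 was the lowest array and high-fat diet replicate 2 the highest. The difference was 0.05 (SE 0.21, 95% interval -0.54 to 0.64, adjusted p = 0.974 by limma). Dropping high-fat diet replicate 1 gave 0.30, and dropping high-fat diet replicate 2 gave -0.20. The other Angpt2 probe set was dim, with 7.18 and 9.93 on the high-fat diet, against 10.7 and 8.10 on the casein diet.

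Thbs1, the secreted thrombospondin that inhibits angiogenesis through CD36 and CD47 and is also stored in platelets, had means close to each other on the diets. Its intensities were 665.2 and 473.3 on the high-fat diet, against 521.6 and 599.4 on the casein diet. The high-fat arrays were the highest and the lowest of the 4. The second probe set, at 334.4 and 222.0 on the high-fat diet against 271.0 and 276.6 on the casein diet, placed them in the same way. The difference of the brightest probe set was 0.005 (SE 0.21, 95% interval -0.60 to 0.61, adjusted p = 0.998 by limma). Dropping high-fat diet replicate 1 gave -0.24, and dropping high-fat diet replicate 2 gave 0.25.

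Fgf2, the basic fibroblast growth factor, was dim on all arrays. Its 1 probe set had 8.23 and 7.19 on the high-fat diet, against 8.33 and 8.63 on the casein diet. Both high-fat arrays were lower by a small margin, a difference of -0.14 (SE 0.11, 95% interval -0.46 to 0.17, adjusted p = 0.863 in limma's fit over all probe sets). Detection calls were not used here, so whether these intensities exceed background cannot be said. Probe sets whose diets did not overlap made up 6 of the 21, against 35.7% of all probe sets.

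Hgf, the hepatocyte growth factor, a stromal ligand of the receptor MET, had the largest difference of the tested genes. The brightest of its 3 probe sets had 90.6 and 72.4 on the high-fat diet, against 60.6 and 67.9 on the casein diet. Both high-fat arrays were higher, with high-fat diet replicate 1 the highest. The difference was 0.34 (SE 0.16, 95% interval -0.11 to 0.79, unadjusted p = 0.105, adjusted p = 0.863 by limma). The second probe set had 53.2 and 40.8 on the high-fat diet, against 36.1 and 38.7 on the casein diet, a difference of 0.32. In the third, which was below the filter, the diets overlapped, with 30.3 and 29.1 on the high-fat diet against 19.5 and 31.1 on the casein diet. The difference of the brightest was 0.17 without high-fat diet replicate 1, the array with high skeletal muscle genes, and 0.50 without high-fat diet replicate 2. The part of muscle tissue in it was not tested.

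Where genes had several probe sets, all of them agreed in sign for 4 of 7 genes (Hif1a, Vegfa, Angpt1 and Hgf). For Vegfc, Angpt2 and Thbs1 the signs were mixed. Probe sets of 1 gene share a transcript and an array and are not replicates. By Euclidean distance between centred log2 values over the 4 arrays, the nearest of 122 genes from the angiogenesis lists was Notch3 for Pgf (0.04), Ecscr for Hif1a (0.05) and Pdgfa for Vegfb (0.05). The nearest was Pdk1 for Vegfa (0.08), Pdpn for Hgf (0.13) and Hif1a for Angpt1 (0.09). For Vegfc, Angpt2 and Thbs1 it was Kcnj8 (0.12), Sdc4 (0.14) and Cspg4 (0.10). Vegfa and Hif1a varied little, lying 0.15 and 0.16 from their own means, so other genes that varied little are near them too. With 4 arrays this is a description only.

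The receptors of these factors were mostly above the casein diet, with 14 of 15 tested receptors and coreceptors higher, 0 called and a median of 0.15. The diets did not overlap for 5 of the 15, or 33.3%, against 36.0% of all genes. Kdr, the main signalling receptor for VEGFA, had 439.5 and 398.2 on the high-fat diet, against 210.1 and 292.1 on the casein diet. Both high-fat arrays were higher, by 0.76 (SE 0.20, 95% interval 0.19 to 1.32, unadjusted p = 0.0215, adjusted p = 0.863 by limma), or 0.52 without casein diet replicate 1. Flt1, the receptor of VEGFA, VEGFB and PGF, had 188.4 and 175.1 on the high-fat diet, against 135.5 and 145.4 on the casein diet, a difference of 0.37 (SE 0.10). Tek had 145.4 and 193.3 on the high-fat diet, against 93.9 and 140.2 on the casein diet, a difference of 0.55 (SE 0.27). Its relative Tie1 differed by 0.03 (SE 0.15).

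Flt4, the VEGFC receptor of lymphatic endothelium, differed by 0.21 (SE 0.14). The coreceptors Nrp1 and Nrp2 differed by 0.02 (SE 0.13) and 0.16 (SE 0.23). Met, the HGF receptor of epithelia, was the 1 receptor below the casein diet, with 309.1 and 466.5 on the high-fat diet against 492.2 and 564.3 on the casein diet (-0.47, SE 0.24). The FGF receptors Fgfr1, Fgfr2 and Fgfr3 differed by 0.63 (SE 0.37), 0.06 (SE 0.43) and 0.44 (SE 0.34). The THBS1 receptors Cd36 and Cd47 differed by 0.04 (SE 0.57) and 0.06 (SE 0.14), and the syndecans Sdc1 and Sdc4, which bind heparin-binding factors, by 0.15 (SE 0.16) and 0.03 (SE 0.19). The median of the receptor list was 0.01 when casein diet replicate 1 was left out, and was 0.21 when casein diet replicate 2 was.

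**Figure D3:**
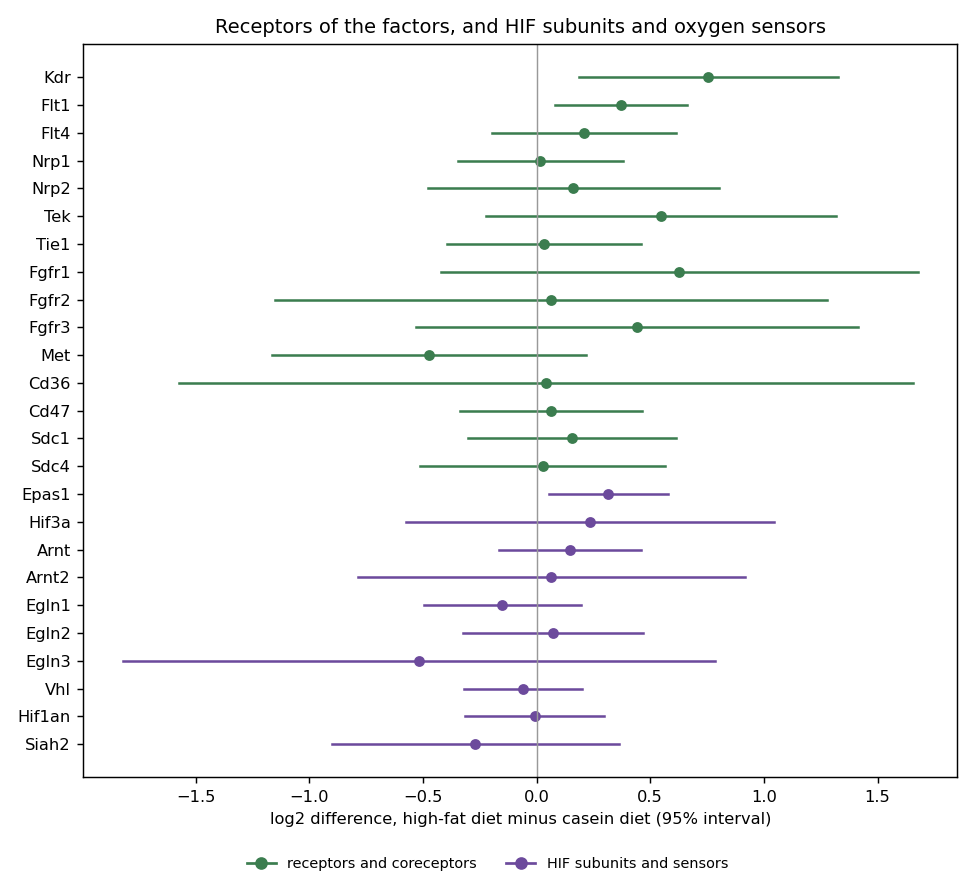
Log2 difference (points) with its 95% interval (lines) for 15 receptors and coreceptors (green) and 10 HIF subunits and oxygen sensors (purple), from limma's fit across genes. The intervals of Kdr, Flt1 and Epas1 lie above 0 before adjustment, and the adjusted p was 0.863 for each.

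Endothelial markers, which report vessel cells, were all on the same side, 23 of 23 higher with a median of 0.35 and 0 called. The diets did not overlap for 18 of them, all higher on the high-fat diet, where 16.6% of all genes were. Cdh5, the endothelial cadherin, had 459.3 and 528.1 on the high-fat diet, against 217.5 and 286.9 on the casein diet. Pecam1, an adhesion molecule of endothelium and leukocytes, differed by 0.26 (SE 0.15), Emcn by 0.65 (SE 0.20) and Vwf by 0.55 (SE 0.28). The median was 0.21 with casein diet replicate 1 left out and 0.51 with casein diet replicate 2 left out. This list was chosen with its direction in these data known, so it is no independent support. In bulk tissue more cells of a type and more RNA per cell cannot be told apart. Lymphatic markers (4 tested, 3 higher, median 0.46) overlapped between diets in every case, with Lyve1 at -0.23 (SE 0.42) and Pdpn at 0.36 (SE 0.21). Their median was 0.20 with high-fat diet replicate 2 left out. Of 9 pericyte markers 6 were higher, with a median of 0.21 that was -0.14 without casein diet replicate 1, and Pdgfrb and Rgs5 differed by 0.59 (SE 0.24) and 0.77 (SE 0.42). The 3 lower ones, named after their values were seen, were Des (-0.35, SE 0.32), Mcam (-0.20, SE 0.17) and Cspg4 (-0.03, SE 0.17).

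The HIF pathway around Hif1a showed no common direction. Of 10 subunits and oxygen sensors, 5 were higher and 5 lower, with 0 called, a median of 0.03 and 3 (30.0%) without overlap. Epas1, the HIF2 subunit prominent in endothelium and macrophages, had 2265 and 2317 on the high-fat diet, against 1800 and 1885 on the casein diet. Both high-fat arrays were higher, by 0.31 (SE 0.09, 95% interval 0.05 to 0.58, unadjusted p = 0.0293, adjusted p = 0.863 by limma), and this was 0.28 to 0.35 with 1 array left out. Arnt, the shared partner, differed by 0.15 (SE 0.11), Arnt2 by 0.07 (SE 0.30) and the HIF family member Hif3a by 0.23 (SE 0.29). The prolyl hydroxylases Egln1, Egln2 and Egln3 differed by -0.15 (SE 0.12), 0.07 (SE 0.14) and -0.52 (SE 0.46). Vhl, Hif1an and Siah2, which act in HIF turnover or activity, differed by -0.06, -0.01 and -0.27.

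HIF target genes were likewise divided, 13 of 24 higher and 11 lower, with 0 called, a median of 0.06 and 6 (25.0%) without overlap. Of these 6, 5 were higher on the high-fat diet and 1 lower, where 16.6% and 19.3% of all genes were. Limma gave an unadjusted p under 0.05 for 2 of the 24, and for 4.97% of all genes. The 2 were Lox (0.42, SE 0.11) and Ankrd37 (0.30, SE 0.09), named after their values were seen. Their adjusted p by limma was 0.863 each, and Ankrd37 was close to the intensity filter. The glycolytic genes Pgk1 and Ldha had differences of -0.002 (SE 0.18) and -0.06 (SE 0.16). The glucose transporter gene Slc2a1 differed by 0.32 (SE 0.26), the peptide gene Adm by 0.35 (SE 0.25), the mitophagy gene Bnip3 by 0.55 (SE 0.26) and Angptl4, which inhibits lipoprotein lipase and also responds to fatty acids through PPARs, by 0.45 (SE 0.20). Car9, a carbonic anhydrase induced by hypoxia and also expressed by gastric epithelium, had 52.3 and 45.4 on the high-fat diet, against 225.8 and 43.0 on the casein diet. The high value was that of casein diet replicate 1, and without it the difference was 0.18, against -1.02 with all arrays.

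Other angiogenic ligands were higher for 8 of 11 tested genes, with 0 called and a median of 0.34, or 0.08 without casein diet replicate 1. Mdk, a heparin-binding growth factor, differed by 0.41 (SE 0.28), Pdgfb, which recruits pericytes, by -0.03 (SE 0.14), Fgf1 by -0.32 (SE 0.42) and Vegfd, a second lymphatic factor, by -0.24 (SE 0.12). Ptn, the pleiotrophin gene and a relative of Mdk, had the largest difference of this list and was named after its values were seen. It had 2481 and 2006 on the high-fat diet, against 855.9 and 1568 on the casein diet (0.95, SE 0.35, adjusted p = 0.863 by limma). Among 11 inhibitors 2 were higher and 9 lower, with 0 called, a median of -0.12 and 5 (45.5%) without overlap. Of these 5, 2 were higher and 3 lower, where 16.6% and 19.3% of all genes were. Sema3f, among those 3 and named after its values were seen, differed by only -0.02 (SE 0.09). The 2 higher inhibitors were Thbs2, a relative of Thbs1, and Col18a1, whose product yields endostatin (0.66, SE 0.31). Thbs2 had 1109 and 641.1 on the high-fat diet, against 292.2 and 424.6 on the casein diet (1.26, SE 0.36, adjusted p = 0.863 by limma). Serpinf1 and Timp3 differed by -0.01 (SE 0.15) and -0.28 (SE 0.21). Sema3a, a guidance factor that binds NRP1, was named after its values were seen, with 139.1 and 146.7 on the high-fat diet against 234.3 and 206.5 on the casein diet (-0.62, SE 0.11, unadjusted p = 0.00629, adjusted p = 0.856 by limma). The median of the inhibitors was -0.04 when high-fat diet replicate 1 was left out and -0.24 when casein diet replicate 2 was. Of 7 enzymes and inhibitors that process HGF, 1 was higher and 6 lower, with 0 called and 2 (28.6%) without overlap. They were uneven within the high-fat diet. Their median of -0.17 became 0.39 on dropping high-fat diet replicate 1 and -0.64 on dropping high-fat diet replicate 2. Plau, the higher one, differed by 0.34 (SE 0.17), Plat by -0.49 (SE 0.56), St14 by -0.46 (SE 0.59) and Spint1 by -0.10 (SE 0.49). Hgfac, the HGF activator gene, was named after its values were seen. It had 25.4 and 49.6 on the high-fat diet, against 223.6 and 58.0 on the casein diet (-1.68, SE 0.79, adjusted p = 0.863 by limma). This was -2.655 to -0.709 with 1 array left out.

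**Figure D4:**
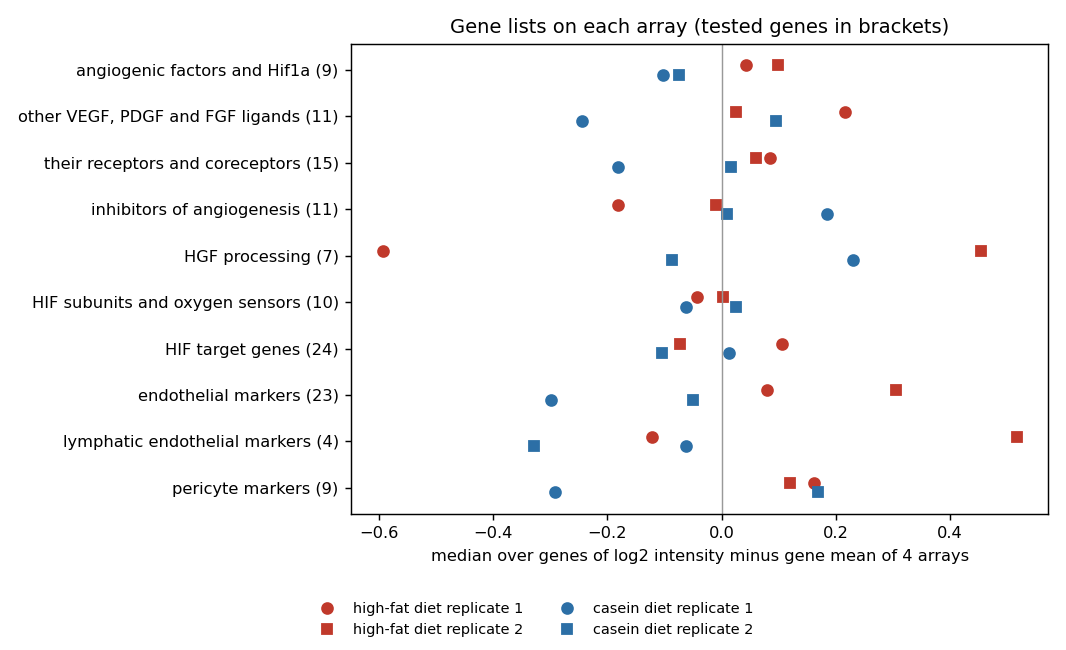
Median over the tested genes of each list of the log2 intensity minus the gene's mean over 4 arrays (horizontal axis), for high-fat diet (red) and casein diet (blue) arrays; circles are replicate 1 and squares replicate 2. For endothelial markers the high-fat arrays lie at 0.08 and 0.31 and the casein arrays at -0.30 and -0.05, and for HIF target genes the diets overlap.

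Marker genes of several other tissues and cell types had unequal summed intensities on the arrays, and tissue amounts were not measured. Summed over 10 gastric markers, intensities were 457.5 and 480.1 on the high-fat diet, against 72114 and 10491 on the casein diet. Skeletal muscle markers (12) summed to 27653 and 947.9 on the high-fat diet, against 857.7 and 1080 on the casein diet. Epithelial markers (8) summed to 4655 and 9101 on the high-fat diet, against 24625 and 10564 on the casein diet. Platelet markers (7) summed to 1802 and 1299 on the high-fat diet, against 761.9 and 770.0 on the casein diet. Most of that gap was Pf4, with 1198 and 838.9 on the high-fat diet against 291.2 and 347.0 on the casein diet, and the median platelet marker lay 0.14 above and 0.03 below its own mean on the high-fat arrays, against -0.05 and -0.04 on the casein arrays. Macrophage markers (10) summed to 31045 and 24446 on the high-fat diet, against 26458 and 25456 on the casein diet. Smooth muscle markers (8), among them Des, summed to 15866 and 13199 on the high-fat diet, against 21503 and 25578 on the casein diet. Mesothelium markers (6) summed to 452 and 455 on the high-fat diet, against 725 and 609 on the casein diet. For intestine and exocrine pancreas the highest sum was that of casein diet replicate 1, and for adipocytes that of high-fat diet replicate 2. The uterine genes Hoxa10, Esr1 and Pgr were present on all arrays and did not share a pattern. Hoxa10 had 1886 and 1521 on the high-fat diet, against 647.2 and 1547 on the casein diet. Esr1 had 3319 and 4046 on the high-fat diet, against 3800 and 3775 on the casein diet. Pgr had 2032 and 2068 on the high-fat diet, against 2761 and 2600 on the casein diet. Endometrial stroma markers (10) summed to 42422 and 38506 on the high-fat diet, against 36755 and 41592 on the casein diet. The part of these tissues in the values above was not tested.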

How the data were processed

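The authors deposited 1 linear intensity per probe set and array. Per the submitters' processing notes, the authors used GCOS and RMA; no version or order is listed, nor the step back to a linear scale. Median intensities were 56.4 and 56.1 on the high-fat diet, against 55.1 and 56.5 on the casein diet, so the authors' values were already alike between arrays and a shift common to most genes could not be seen. The number of arrays, 2 per diet, limits the precision, and an exact permutation test could give no p below 0.333.

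Values were taken to log2 with no pseudocount. Probe sets were named through the platform annotation: 34945 had 1 symbol, 932 several and 9160 none, and 64 were controls. Gene identifiers of 34741 matched the GRCm38.p6 gene table. Each gene was represented by its brightest probe set, and 12797 genes at or above the 40th percentile were tested with limma 3.58.1 (R 4.3.3), two-sided, Benjamini-Hochberg adjusted over all genes (3.80 total degrees of freedom). All 21 probe sets were also fitted with every other probe set of 1 symbol. Alternatives were quantile normalisation, median centring, a pseudocount of 16, other filters, the mean of all probe sets, array weights, an intensity trend, a replicate block, a threshold of 0.10 and leaving out each array. Named genes are all 10 genes, receptors, HIF subunits and a fixed set from each list; of that set Prox1 was not tested, and 1 gene is not reported here. The genes, lists and tests were chosen with earlier results of these data known. Figures were drawn with matplotlib 3.10.9.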

Additional observations from a re-analysis of the deposited data

How the results depend on the processing

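No gene of the 10 was called under any of the 13 alternative settings in which it was fitted, and the smallest adjusted p by limma among their values and those of Kdr, Flt1, Tek, Thbs2, Epas1, Sema3a and Ptn was 0.177, for Kdr without casein diet replicate 2. The count of genes called over the whole array was 0 in all settings but 1, with a range of 0 to 17 over the fits on 3 arrays. The 17 came from the fit in which casein diet replicate 1 stood alone for its diet and was assumed to vary like the high-fat arrays. The count was also 0 at a threshold of 0.10 and with every probe set as a feature. The diets did not overlap for 3 of the 9 tested angiogenic genes. With a filter at the 60th percentile, where Angpt1 and Hgf were no longer tested, this held for 1 gene. With 1 array left out it held for 6 of the 9 in every fit, where fewer arrays make overlap rarer. Over all 12797 genes tested it then held for 7897 to 9886, against 4602 with all arrays. The median difference over the tested angiogenic genes was 0.11, or 0.14 with quantile normalisation. It was 0.051 with the 60th percentile filter and 0.12 to 0.17 with 1 array left out. Sign changes occurred for 4 genes near 0. With the mean of all probe sets Hif1a was 0.33, against 0.11 from its brightest, an average that takes in the dim probe set described above. With the same mean Vegfc was 0.047, Angpt2 -0.047 and Thbs1 -0.0009, and with median centring Thbs1 was -0.005. With 1 array left out, the ranges were -0.15 to 0.049 for Vegfa, -0.41 to 0.38 for Vegfc, -0.20 to 0.30 for Angpt2 and -0.24 to 0.25 for Thbs1. The cause was not tested. With the replicate number as a replicate block, 0 genes were called. The median over the 9 genes was again 0.11, which could not change, since both replicate numbers occurred in both diets. Array weights, which came out equal within each diet, and the intensity trend also left the differences as they were. Same-numbered arrays did not deviate together (r = -0.02 across genes, which are not independent), and nothing in the labels pairs them. The arrays did not group by diet. Across tested genes, casein diet replicate 2 correlated at 0.961 and 0.976 with high-fat diet replicates 1 and 2, and at 0.954 with casein diet replicate 1. Casein diet replicate 1 correlated at 0.913 and 0.929 with the high-fat arrays. With 2 arrays per diet the intervals limit what can be seen, up to 1.83-fold for Vegfc.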
